A study of Sus scrofa with 4 samples.

Results

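The expression of 8 genes of B cells and of antibody transport was described in the ileum of suckling piglets. They were taken from the array design as every non-control probe whose RefSeq transcript, matched without its version to the NCBI gene table of Sscrofa11.1, belonged to *LOC396781* (an immunoglobulin heavy chain gene), *PIGR*, *XBP1*, *CD79A*, *FCER2*, *TNFSF13*, *TNFSF13B* or *CD40*. All 8 had a probe, out of 2389 genes that could be named on the array, and together they had 27 probes. No measured value entered this choice, although earlier results of these data were known when it was made.

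The study compared piglets of low weight gain with piglets of high weight gain. All animals were 16 days old, were fed by lactating sows and had Yorkshire × Landrace dams and Duroc sires. Low gain was represented by 2 arrays, a and b, each labelled as a pool of 2 piglets, and high gain by 2 arrays, a and b, each labelled as a pool of 3 piglets. The labels do not state whether a and b came from separate pools, so the p-values rest on array-to-array spread alone, possibly a technical one, and animal-to-animal variation cannot be read from them. The design text names weight at birth where the sample labels name weight gain, and the sample labels were followed.

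Plasma cells below the gut epithelium secrete antibody, much of it dimeric or polymeric IgA, and the receptor encoded by *PIGR* carries it across epithelial cells into the lumen. B cells receive survival and switching signals from the TNF family ligands encoded by *TNFSF13* (APRIL) and *TNFSF13B* (BAFF) and through the receptor CD40. The heavy chain locus is a family of segments that are joined differently in each B cell, and the transcripts of different antibody classes and subclasses share sequence.

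Every value is a log2 processed signal minus the 75th percentile of its array, written here as normalised log2 signal, so that 0 marks the 75th percentile. Of 43803 non-control spots, the arrays had 32835 to 33972 well above background and none saturated. *FABP6*, a bile acid binding protein gene that marks the ileum, gave 8.65 and 8.72 on the low-gain arrays and 8.55 and 8.76 on the high-gain arrays. Each of the 27 probes was spotted once, and 26 lay well above background on all 4 arrays, the exception being the probe of *FCER2*. All 27 entered the test. Precision is limited by the number of arrays, and levels of different probes are not set against each other because probes differ in brightness for the same amount of transcript.

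The largest differences between low and high gain within the 8 genes were those of the immunoglobulin heavy chain gene. *LOC396781* had 13 probes, all designed to the same RefSeq transcript. On 10 of them both low-gain arrays lay above both high-gain arrays, by 0.90 to 1.82 on the log2 scale (1.87-fold to 3.54-fold, median difference 1.42), and on the other 3 both low-gain arrays lay below both high-gain arrays, by -0.44 to -1.51. None of the 13 passed limma's test with adjustment over all 33265 tested probes (adjusted p 0.100 to 0.230). In a bulk sample, more cells of a type and more transcript per cell cannot be told apart.

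The probe with the largest difference, A_72_P745956, had 6.18 and 6.30 on low-gain arrays a and b, against 4.83 and 4.01 on high-gain arrays a and b. The difference was 1.82 ± 0.31 (SE, n = 2 arrays per group), with a 95% interval of 0.97 to 2.67 and a limma adjusted p of 0.161. The low-gain arrays were nearly alike and the high-gain arrays stood well apart from each other, array b being the lower.

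The probe with the highest mean signal of the gene, A_72_P710376, had 6.28 and 6.32 in low gain, against 5.13 and 4.46 in high gain. Its mean was 6.30 ± 0.03 in low gain and 4.79 ± 0.48 in high gain (SD, n = 2 each), a 2.84-fold difference (log2 1.51 ± 0.26, SE, limma adjusted p = 0.161). Again the 2 groups did not overlap, and high-gain array b was the lowest.

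The smallest of these 10 differences was on A_72_P715165, which had 5.33 and 5.44 in low gain, against 4.84 and 4.12 in high gain. That is 0.90 ± 0.27 (SE, 95% interval 0.14 to 1.67, limma adjusted p = 0.230). The other 7 probes of this kind differed by between 1.18 and 1.53. Across all 10, the signal ran from 5.33 to 6.28 on low-gain array a and from 5.44 to 6.32 on low-gain array b. It ran from 4.63 to 5.13 on high-gain array a and from 3.93 to 4.48 on high-gain array b. All 10 probes thus placed the arrays in the same order as far as the high-gain group is concerned, with a above b.

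The 3 remaining heavy chain probes went the other way. A_72_P711793 had 1.14 and 1.16 in low gain, against 2.83 and 2.48 in high gain, and was 2.84-fold lower (log2 difference -1.51 ± 0.16, SE, limma adjusted p = 0.100). A_72_P716828 had 3.99 and 4.004 in low gain, against 4.60 and 4.43 in high gain (-0.52 ± 0.11, adjusted p = 0.188). A_72_P152696 had 4.96 and 4.89 in low gain, against 5.31 and 5.43 in high gain (-0.44 ± 0.11, adjusted p = 0.198). Probes of 1 accession therefore gave opposite directions, and which stretch of the transcript each reads was not analysed here. Heavy chain transcripts can cross-hybridise, and the values of the gene are uncertain in that respect. The mean over all 13 probes differed by 0.88 (limma adjusted p = 0.101 over genes), which averages both kinds.

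**Figure D1:**
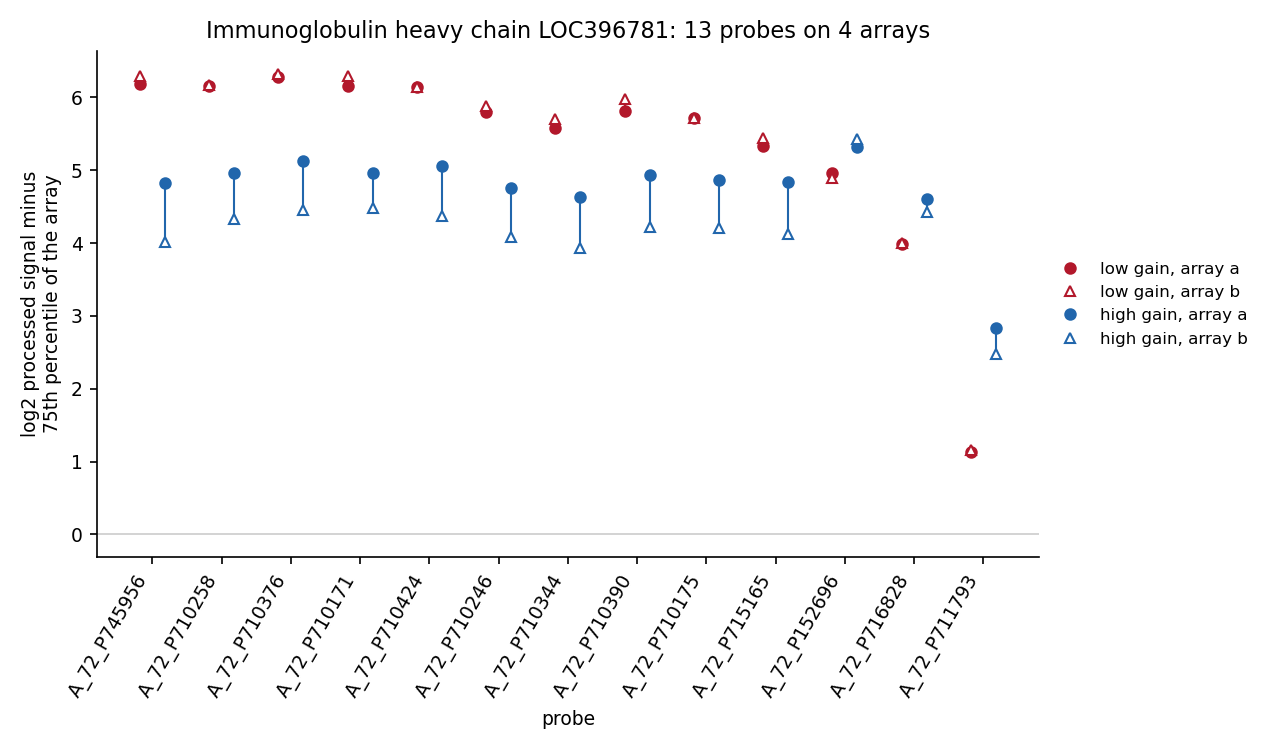
Normalised log2 signal of the 13 probes of *LOC396781* on low-gain arrays (red, left of each pair) and high-gain arrays (blue, right), with circles for array a, triangles for array b and a line joining the arrays of a group. On the first 10 probes the low-gain arrays lie above the high-gain arrays, on the last 3 below them.

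The 10 higher probes had standard errors of 0.20 to 0.31 and the 3 lower probes of 0.11 to 0.16, and the high-gain arrays stood further apart on the 10. On these 10 probes the low-gain arrays differed by at most 0.16. High-gain array a exceeded high-gain array b by 0.48 to 0.82 on the same probes (median 0.68). Over all tested probes the median absolute difference between arrays of a group was 0.14 in low gain and 0.15 in high gain, and 7.28% of tested probes had a high-gain difference, a minus b, at or above 0.48. On the 3 lower probes the high-gain arrays differed by -0.11 to 0.35. The 10 spots lay between row 15 and row 507 of the 532 rows of the array. Leaving out high-gain array a changed the 10 differences to between 1.27 and 2.23, and leaving out high-gain array b to between 0.54 and 1.41.

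**Figure D2:**
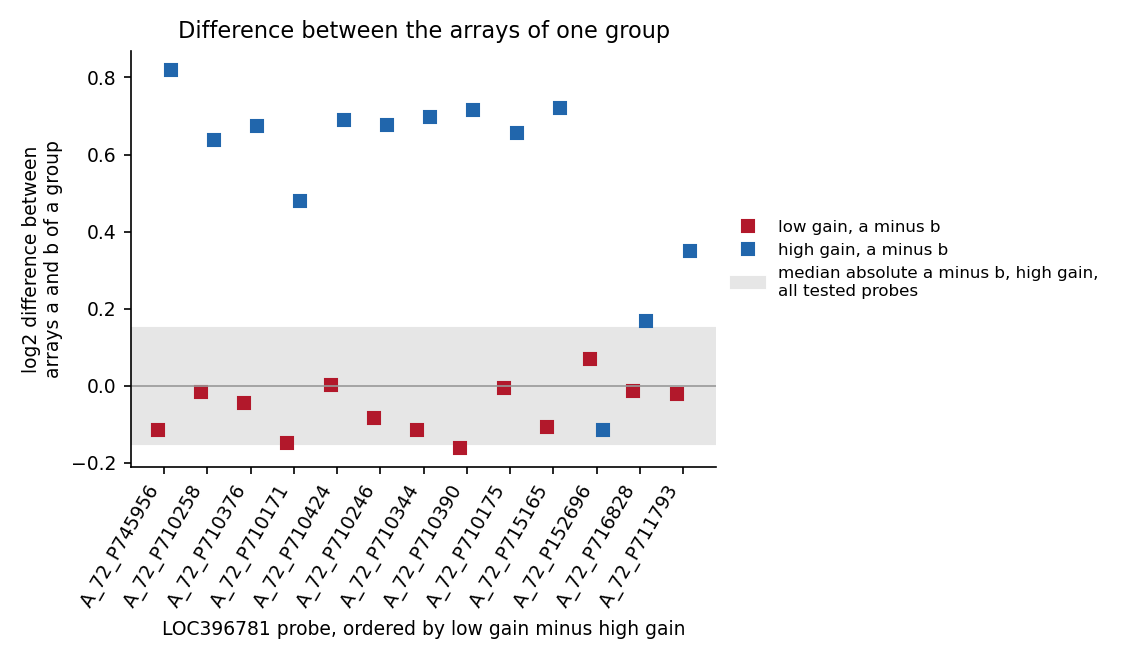
Difference between arrays a and b on the log2 scale for each *LOC396781* probe, in low gain (red) and in high gain (blue), with a grey band at plus and minus the median absolute difference of all tested probes in high gain, 0.15. The blue squares of the first 10 probes lie between 0.48 and 0.82, outside the band, and the red squares lie between -0.16 and 0.07.

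*PIGR*, the gene of the receptor that carries IgA and IgM through epithelial cells, had 1 probe. Its signal was -0.56 and -0.41 in low gain, against -0.57 and -1.08 in high gain. The groups did not overlap, but low-gain array a and high-gain array a were almost equal. The difference was 0.34 ± 0.21 (SE, n = 2 arrays per group), with a 95% interval of -0.24 to 0.93 and a limma adjusted p of 0.442. It was 0.60 without high-gain array a and 0.09 without high-gain array b. With normexp background correction it was 0.07, and 0.25 in a version of normexp with bright local backgrounds replaced.

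Since *PIGR* is made by epithelial cells, a list of epithelial markers is given beside it. On the brightest probe of each gene, the mean of all 8 tested markers was higher in low gain (median log2 difference 0.44), and 0 of 8 passed the test. Of all genes tested, 53.4% were higher. The 2 other probes of *KRT8* were at -0.30 and 0.34, and those of the other markers were higher in low gain. The summed signal of the 8 brightest probes, in multiples of the 75th percentile of the array, was 815 and 844 in low gain and 669 and 746 in high gain. The part of this in the value of *PIGR* was not tested.

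*CD79A* encodes a signalling chain of the B cell receptor and marks cells of the B lineage. Its probe gave 3.12 and 3.02 in low gain, against 3.26 and 3.50 in high gain. Both low-gain arrays were the lower ones, by -0.31 ± 0.13 (SE, 95% interval -0.67 to 0.05, limma adjusted p = 0.316). Without high-gain array b the difference was -0.19, and without high-gain array a it was -0.43. The direction was thus opposite to that of most heavy chain probes.

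*CD40* encodes the receptor on B cells and antigen-presenting cells through which T cells give help. Its brighter probe, A_72_P088376, had 5.34 and 5.13 in low gain, against 5.23 and 5.29 in high gain. These groups overlapped, and the difference was -0.02 ± 0.12 (SE, 95% interval -0.36 to 0.32, limma adjusted p = 0.929), positive without low-gain array b (0.08) or without high-gain array b (0.0084). The other probe, A_72_P544217, had 1.93 and 1.98 in low gain, against 2.37 and 2.26 in high gain. These groups did not overlap (-0.36 ± 0.11, adjusted p = 0.225), so the 2 probes of *CD40* did not give the same picture.

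*FCER2* encodes CD23, the low-affinity receptor for IgE, found on mature and follicular B cells. Its signal was faint, at -5.82 and -5.80 in low gain, against -5.08 and -5.30 in high gain, and low-gain array a was not well above background. The measured difference was -0.62 ± 0.13 (SE, 95% interval -0.97 to -0.27, limma adjusted p = 0.183). When the prior variance followed signal intensity, its SE was 0.32 (limma adjusted p = 0.325). The difference shrank to -0.07 with normexp and to -0.02 in a version of normexp with bright local backgrounds replaced. Its size thus depends on how background is treated.

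The genes of the related ligands APRIL and BAFF had values on different sides of 0. *TNFSF13* (APRIL, which supports plasma cells and IgA switching) had -0.96 and -1.19 in low gain, against -1.69 and -1.53 in high gain. Both low-gain arrays were higher, by 0.53 ± 0.14 (SE, 95% interval 0.15 to 0.92, 1.45-fold, limma adjusted p = 0.206). With normexp the difference was 0.22, and with bright local backgrounds replaced it was 0.45.

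*TNFSF13B* (BAFF, a survival factor of B cells) was read by 2 probes. A_72_P178011 had -2.14 and -2.09 in low gain, against -1.72 and -1.73 in high gain, a difference of -0.39 ± 0.10 (SE, limma adjusted p = 0.200). With normexp it was -0.12, and with bright local backgrounds replaced -0.22. A_72_P674666, the brighter one, had -0.97 and -1.25 in low gain, against -1.06 and -1.04 in high gain, and the groups overlapped (-0.06 ± 0.14, 95% interval -0.44 to 0.32, adjusted p = 0.830). Its difference was 0.08 without low-gain array b.

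*XBP1* encodes a transcription factor of the unfolded protein response that plasma cells and other secretory cells need. Its 6 probes differed by -0.31 to 0.25, with 2 probes higher and 4 lower in low gain. The brightest, A_72_P550986, had 6.22 and 6.04 in low gain, against 5.83 and 5.94 in high gain (0.25 ± 0.12, SE, limma adjusted p = 0.362), and differed by 0.16 without low-gain array a. A_72_P544772 had 1.02 and 1.07 in low gain, against 1.57 and 1.15 in high gain (-0.31 ± 0.18, adjusted p = 0.420), and differed by -0.10 without high-gain array a and by -0.52 without high-gain array b. The probes of the gene did not share a direction, and each 95% interval included 0. The difference of A_72_P094611, 0.06 ± 0.10 (SE), turned to -0.0026 under quantile normalisation, and the mean over the 6 probes differed by -0.09.

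**Figure D3:**
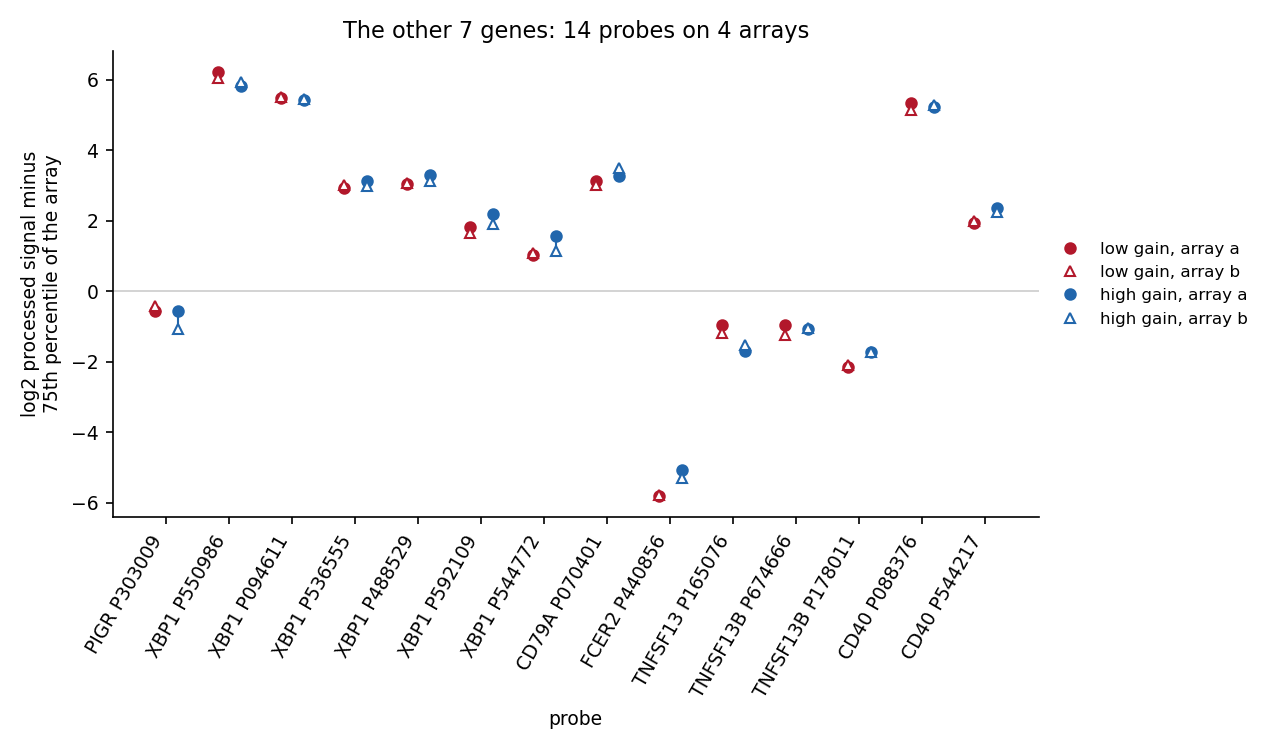
Normalised log2 signal of the 14 probes of the other 7 genes on low-gain arrays (red, left of each pair) and high-gain arrays (blue, right), with circles for array a and triangles for array b. The group means of a probe differ by at most 0.62, which is less than on the 10 higher heavy chain probes and more than on 2 of the 3 lower ones.

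Counted over the 27 probes, 0 passed limma's test, against 0.24% of all tested probes (80 of 33265). An unadjusted p under 0.05 was reached by 17 of the 27 probes, 13 of them of *LOC396781*, where the background was 18.4%. The groups did not overlap on 24 of the 27 probes, where the background was 54.5%. Of these 24, 14 were higher in low gain and 10 were lower. As shares of all 33265 tested probes, those without overlap made up 27.6% on the higher side and 26.9% on the lower side. Probes designed to 1 gene are not independent, and 13 of the 24 belonged to *LOC396781*. For the other 7 genes, 11 of 14 probes did not overlap and 4 had an unadjusted p under 0.05. The probe of *FCER2* is counted among the 24, the 17, the 11 and the 4. Being well above background on 1 low-gain and 2 high-gain arrays, it entered the test only through high gain, where it was the higher. With 2 arrays per group an exact permutation test of a single probe cannot go below 0.333 (two-sided).

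The count depended on how the variance was modelled. When the prior variance followed signal intensity, 12 of the 27 probes passed (limma adjusted p), all of them of *LOC396781*, 9 higher and 3 lower in low gain, where the background was 3.76% (2.26% higher and 1.5% lower). The heavy chain probe that did not pass was A_72_P715165 (adjusted p = 0.0723). Counts from fits with the trend and without 1 array are not given here. Such fits measure spread only within the group that keeps both arrays. On the higher heavy chain probes the low-gain arrays were the closer pair.

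**Figure D4:**
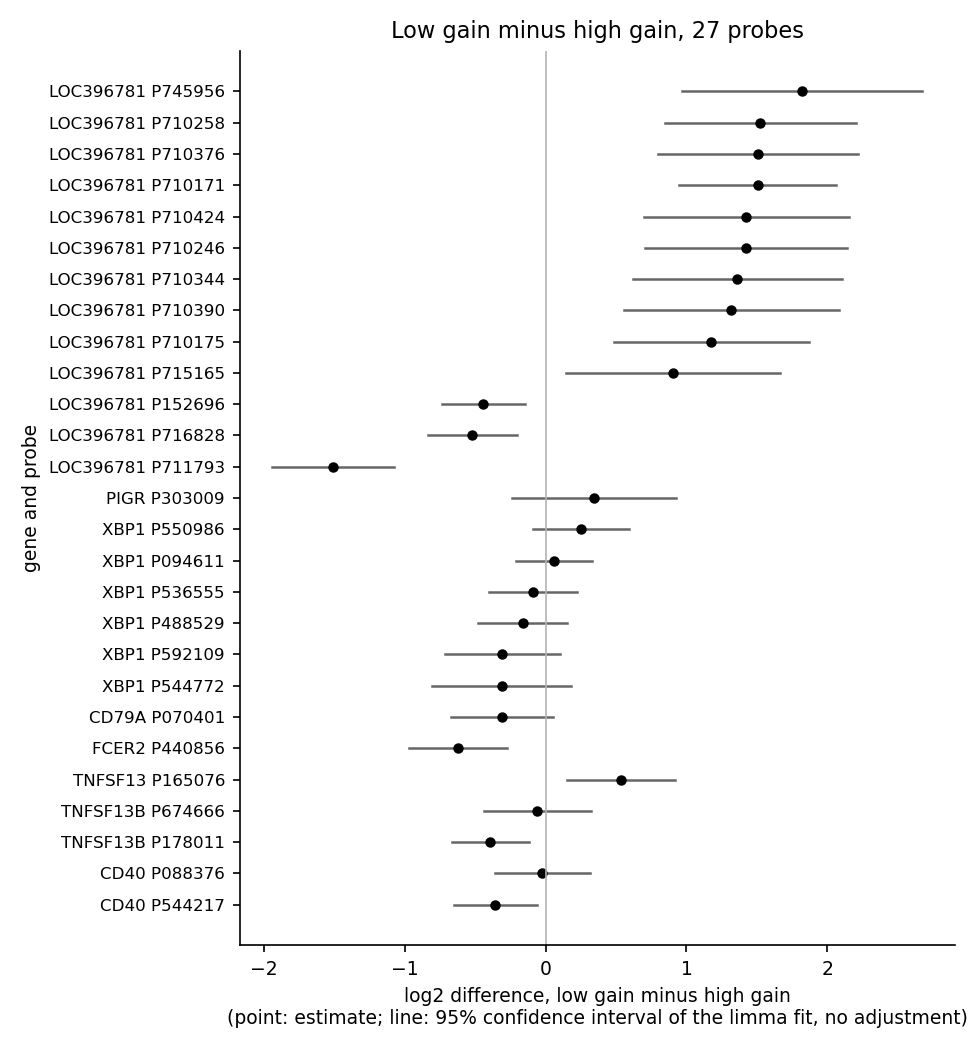
Log2 difference, low gain minus high gain, for the 27 probes, with the 95% confidence interval of the limma fit without adjustment for multiple tests. The heavy chain probes run from -1.51 to 1.82 and those of the other genes from -0.62 to 0.53.

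Other genes of B cells were few among the named genes. Of 19 listed genes of the B cell receptor and surface, 4 could be measured, and 3 of these had lower means in low gain with no overlap (median -0.54, against 0.02 over all 2158 genes tested). *CD72*, a B cell co-receptor gene, had 2.04 and 2.48 in low gain, against 2.86 and 3.07 in high gain (-0.70 ± 0.20, SE, limma adjusted p = 0.215), and its other probe differed by -1.02. *CD1D*, which encodes a molecule that presents lipids, differed by -0.72 ± 0.12 (adjusted p = 0.155), and values of -0.41 and -0.10 came from its 2 other probes. *SYK*, a kinase gene of antigen receptor signalling, differed by -0.38 ± 0.10 (adjusted p = 0.207), and a second probe gave -0.79. None of the 4 passed the test, for which the background over genes was 0.417%, and the background for groups without overlap was 61.8%. With the intensity trend 2 of the 4 passed, *CD1D* (limma adjusted p = 0.0177) and *SYK* (adjusted p = 0.0398), where the background over genes was 7.88%. *CD72* passed as the mean over its probes (-0.86, limma adjusted p = 0.0483).

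All 3 measured regulators of B cells and plasma cells, out of 17 listed, had lower means in low gain (median -0.40), and 0 passed. *POU2F2* (OCT2, a B cell transcription factor) had -0.13 and -0.13 in low gain, against 0.83 and 0.43 in high gain (-0.76 ± 0.17, SE, limma adjusted p = 0.193), and it alone of the 3 passed with the intensity trend (adjusted p = 0.0442). *SPI1* (PU.1, shared with myeloid cells) differed by -0.40 ± 0.13, or -0.20 with normexp. *ETS1*, also a T cell factor, differed by -0.12 ± 0.10, and its other probe by -0.33.

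Ligands, receptors and adaptors around CD40, APRIL and BAFF went both ways. Of 17 listed genes 6 were measured, 4 higher and 2 lower, with a median of 0.04 and 0 past the test. For 3 of the 6 the groups did not overlap, where the background over genes was 61.8%. *TRAF6*, an adaptor gene of CD40 signalling, differed by 0.36 ± 0.11 (SE, limma adjusted p = 0.223) and *LTA*, the gene of lymphotoxin alpha, by 0.27 ± 0.11, with its other probe at -0.13. *TNFSF4* was at -0.21 ± 0.10, and at -0.02 with normexp. *TNFSF10* was at -0.01 ± 0.10 on its brighter probe, positive without low-gain array a (0.03) or high-gain array a (0.04), and its other probe was at -0.48.

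Genes of Fc receptors and antibody binding were 5 higher and 3 lower among 8 tested of 10 listed (median 0.07, 0 past the test), and *FCGR1A* was not well above background on any array. *TRIM21*, a cytosolic antibody receptor gene, differed by -0.46 ± 0.18 (SE, limma adjusted p = 0.289), and its other probe by 0.04. Without high-gain array a it was at -0.30, and with normexp at -0.24. *CD74*, the invariant chain gene of antigen presentation, was at -0.43 ± 0.12 (adjusted p = 0.218), with its other probe at -0.80. The inhibitory receptor gene *FCGR2B* was at -0.41 ± 0.10 (adjusted p = 0.198), with its 2 other probes at -0.34 and 0.42. With normexp it was at -0.21, and with bright local backgrounds replaced at -0.37. *B2M*, which encodes the light chain shared by the neonatal Fc receptor and class I molecules, was at 0.05 ± 0.10.

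Genes of IgA switching and gut homing also went both ways. Of 23 listed, 16 were tested, 7 higher and 9 lower (median -0.02, 0 past the test), and *IL21* was not well above background on any array. Among the 7 higher, *IL13* was well above background on 2 low-gain arrays and 1 high-gain array. It entered the test only through low gain, where it was the higher. *CCR9*, the receptor gene that guides lymphocytes to the small intestine, had -0.29 and -0.43 in low gain, against -0.91 and -0.96 in high gain (0.57 ± 0.11, SE, limma adjusted p = 0.172), and differed by 0.25 with normexp. *CXCR4*, a homing receptor gene, had 1.34 and 1.39 in low gain, against 2.01 and 1.86 in high gain (-0.57 ± 0.11, adjusted p = 0.174). *IL4*, a switching cytokine gene, was at 0.52 ± 0.23, but at 0.26 without low-gain array a, 0.78 without low-gain array b and 0.05 with normexp. *MADCAM1*, the vascular addressin gene of the gut, had a difference that rounds to 0. It was 0.0041 with median centring and ran from -0.09 to 0.09 without 1 array.

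The unfolded protein response and secretory pathway, in which *XBP1* acts, had 7 measured genes of 26 listed, 4 higher and 3 lower (median 0.05, 0 past the test). *DNAJC3*, a chaperone gene of the endoplasmic reticulum and, in mouse, a target of XBP1, differed by -0.23 ± 0.11 (SE). *HSP90B1*, a chaperone gene that assists antibody folding, differed by 0.19 ± 0.16, with high-gain array a the lowest, and by 0.0016 without that array. Its 7 other probes lay at -0.03 to 0.14. *SPCS1*, of the signal peptidase complex, was at -0.13 ± 0.10, with its 10 other probes at -0.12 to 0.01. The brightest probe of *ATF4*, a stress transcription factor gene, was at -0.01 ± 0.11, positive without low-gain array b (0.05) or high-gain array b (0.02). Its 5 other probes were all lower in low gain, by -0.31 to -0.82, and the mean over its probes differed by -0.37.

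Of the last 4 lists, the intensity trend put past the test 1 gene of Fc receptors and antibody binding, *FCGRT*, higher in low gain, and 3 of IgA switching and gut homing, *CCL25* and *CCR9* higher and *CXCR4* lower. The background over genes was 7.88%. The brightest probe of *FCGRT* differed by 0.36 ± 0.10 (SE), but its 2 other probes were at -0.37 and 0.04. *FCGRT* and *CCL25* are named here after their values were seen. The trend put 0 of the 6 genes around CD40, APRIL and BAFF and 0 of the 7 secretory pathway genes past the test.

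**Figure D5:**
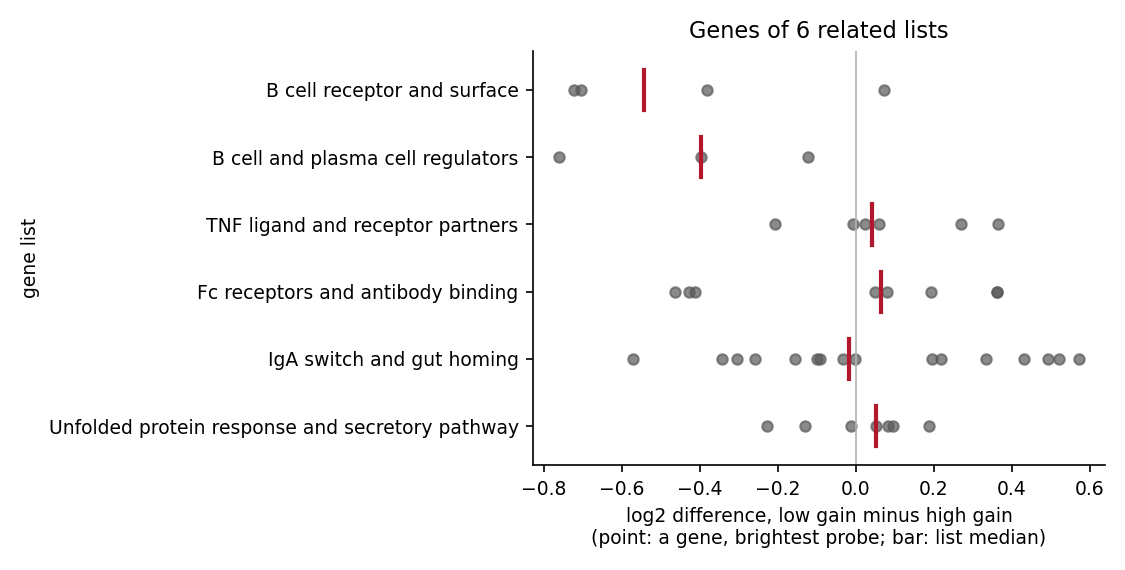
Log2 difference, low gain minus high gain, of the measured genes of 6 lists around B cells and antibody (points, brightest probe of each gene) with the median of each list (red bar). The 2 lists of B cell genes, with only 4 and 3 measured genes, have medians of -0.54 and -0.40, and the other 4 lie between -0.02 and 0.07.

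Markers of other cells in the ileum also differed in level. Counts are over the brightest probe of each gene, and 53.4% of all genes tested were higher in low gain. Goblet cell markers were higher in low gain for 4 of 4 genes, with a summed signal of 179 and 175 in low gain and 86.5 and 93.0 in high gain. Of the 4, 1 (*CLCA1*) passed the test, where the background over genes was 0.417%. Smooth muscle markers were higher for 3 of 4 (275 and 271 in low gain, 212 and 209 in high gain). Of these 3, *DES* had 2 other probes at -0.34 and -0.02, and *CNN1* had another at 0.45. Macrophage and dendritic cell markers were lower for 6 of 6 (22.4 and 22.6 in low gain, 25.2 and 25.0 in high gain). Of these, *SIGLEC1* was well above background on 1 low-gain and 2 high-gain arrays. It entered the test only through high gain, where it was the higher. T cell markers were higher for 5 of 7, although their sum, 13.4 and 13.6 in low gain, was below that in high gain, 18.4 and 16.7. A sum is weighted toward bright probes. *CD247*, the brightest of this list and 1 of its 2 lower markers, was at 3.13 and 3.21 in low gain, against 3.92 and 3.76 in high gain. Fat cell markers were lower for 3 of 4 (2.20 and 1.34 in low gain, 3.66 and 3.68 in high gain). Of these 3, *PLIN1* likewise entered only through high gain, being well above background on 1 low-gain and 2 high-gain arrays. No blood marker could be named. In each of these lists apart from that of goblet cells 0 genes passed. With the intensity trend the background over genes was 7.88%. The genes past the test were 4 of 8 epithelial markers, 3 of 4 goblet cell markers and 3 of 4 smooth muscle markers, all higher in low gain. They were also 1 higher and 1 lower T cell marker, 1 lower macrophage and dendritic cell marker and 1 lower fat cell marker. The part of cell make-up in the values of the 8 genes was not tested.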

How the data were processed

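The authors deposited scanner files of 1-colour Cy3 arrays with spot intensity values, which per the file headers come from Agilent Feature Extraction 10.7.3.1. The authors also deposited log2 values of these arrays in a table, whose processing was not stated and whose centring is unknown. Against log2 processed signal its slope was 1.00 to 1.01 over spots well above background, and its column medians were 5.62 and 5.59 in low gain and 5.67 and 5.60 in high gain. It served only as an alternative.

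Here log2 of the processed signal was taken and scaled by subtracting each array's 75th percentile (non-control spots). Spots with outlier flags were left out, and spots of a probe were averaged. Of 43603 probes, 48 had a missing value and were dropped. Probes well above background on both arrays of at least 1 group were tested, 33265 in all, as low gain minus high gain. The test was limma 3.58.1 (lmFit, eBayes; R 4.3.3), and p-values were adjusted by Benjamini-Hochberg across the tested probes, with 0.05 as threshold. Code was tested on simulated data. Names came from RefSeq accessions, matched for 5461 of 5779 probes that carry one. A gene outside the 8 was represented by its tested probe with the highest mean signal. In each list around B cells and antibody, genes past the test were named, then the 3 with the largest absolute difference and the 1 nearest to 0. Of the genes this names, 1 is not reported here by itself and is counted only in its list. Of the cell type markers, *FABP6*, *CLCA1*, *CD247*, *KRT8*, *DES*, *CNN1*, *SIGLEC1* and *PLIN1* were named after their values were seen, as was *IL13*. The 8 genes and the lists were chosen with earlier results of these data known. Coordinates are left out because the files name no build, and no probe, promoter or protein sequence was used here. The alternatives were other scalings, background corrections, filters and variance models, the array letter as a block, the mean over probes, and leaving out each array.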

Additional observations from a re-analysis of the deposited data

How the results depend on the processing

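No probe of the 8 genes passed in the fit reported, with quantile normalisation, with normexp, with the deposited values, with either other filter on dim probes, or without any 1 array. The count was 1 with median centring, 12 with the intensity trend and 11 under normexp with bright local backgrounds replaced, a setting added after the data were seen, as was leaving out an array with the trend. With the trend and without 1 array the count varied as well, and spread was then measured within only 1 group. The count over all probes, 80 in the fit reported, was 163 with median centring, 1250 with the trend, 1043 with bright backgrounds replaced, 12 with no filter, and 0 with normexp, with signal required on all 4 arrays or with the block. It ran from 0 to 542 when 1 array was left out. The 8 genes had 17 probes with an unadjusted p under 0.05 in the fit reported, 0 with normexp and 18 under normexp with bright backgrounds replaced. That replacement changed 36 non-control spots of low-gain array a, 29 of high-gain array b and 0 of the other arrays. The cause of the low count with normexp was not tested. With the letter as a replicate block 0 probes of the 8 genes passed. The letters are not known to pair arrays, and the a minus b differences of the 2 groups correlated at -0.03 across 31471 probes.

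All 13 heavy chain probes kept their direction in the 14 settings with a value per probe, the one reported included. Directions turned for *XBP1* probe A_72_P094611 (-0.0026 with quantile normalisation), *XBP1* as a mean over probes (-0.094), and *MADCAM1* (0.0041 with median centring, 0.020 as a mean over probes). Without 1 array, *TNFSF13B* probe A_72_P674666 ran from -0.20 to 0.079, *CD40* probe A_72_P088376 from -0.13 to 0.079, *TNFSF10* from -0.049 to 0.038, *MADCAM1* from -0.094 to 0.094 and *ATF4* from -0.079 to 0.054. Low signal limits *FCER2*, which had no value when all 4 arrays had to be above background.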

Other observations

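The pattern of the 10 heavy chain probes was looked for among all tested probes, with limits set after the values of those 10 were seen. The limits were both low-gain arrays above both high-gain arrays, a log2 difference of at least 0.90, low-gain arrays within 0.16 of each other, and high-gain array a above array b by 0.48 to 1. The upper limit of 1 was wider than the 10 probes, whose highest value was 0.82, and the others came from the 10. Of 33265 probes 28 met them, 10 of *LOC396781* by construction and 18 others, of which 15 had no gene name here. The 3 named ones were probes of *SPAM1*, *AQP6* and *ITIH4*, given here after their values were seen. Their signals were faint, at -4.43 to -5.97, -4.28 to -5.83 and -3.48 to -5.18 over the 4 arrays. A further limit, signal above the 75th percentile of the array on all 4 arrays, was also set after the values were seen. All 10 heavy chain probes met it, their lowest signal being 3.93 on high-gain array b. It left 11 probes, the 10 of *LOC396781* and 1 without a name, A_72_P789166. That probe was at 2.29 and 2.25 in low gain, against 1.72 and 0.86 in high gain. Because the limits were drawn from the 10 probes, these counts do not show that the pattern is particular to the gene.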
